A study of Saccharomyces cerevisiae with 6 samples.

Results

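HSF1 (YGL073W), MSN2 (YMR037C), MSN4 (YKL062W) and GIS1 (YDR096W) encode the transcription factors that carry most of the heat-shock and general stress response of budding yeast. Their own mRNA was followed after depletion of Hsp90. The genes were taken by name and matched to the ORF names of the array table, and all 4 of 4 were found among its 6377 ORFs, with 1 probe each and a value on every array. MSN4 mRNA was higher in dox-treated cells on 6 of 6 arrays, 2.41-fold in culture 1 and 1.33-fold in culture 2. The mRNA of HSF1, MSN2 and GIS1 stayed within 1.5-fold of the untreated level in the mean of each culture and did not meet the criterion for a change.

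Hsf1 is an essential activator that binds heat-shock elements as a trimer and drives the genes of Hsp90, Hsp70 and their partners. Chaperones bind Hsf1 and hold it in check in unstressed cells, and stress releases it. Msn2 and Msn4 are paralogous zinc finger activators that recognize the stress response element. Protein kinase A keeps both out of the nucleus while glucose is plentiful. MSN2 is known to be expressed constitutively, whereas MSN4 expression is inducible by stress. Gis1 is a zinc finger factor of the post-diauxic shift that acts downstream of the kinase Rim15 and recognizes a related element. All 4 factors are regulated largely as proteins, by localization, phosphorylation and chaperone binding. An array of mRNA reads none of these.

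The arrays compared dox-treated with untreated cells of 1 haploid strain in the R1158 background. Both samples of every array carried TETp-HSC82, in which a dox-repressible promoter drives the constitutive Hsp90 gene, together with hsp82Δ, arg4Δ, lys5Δ and car2Δ::URA3. Treated cells had been in medium with dox (5 μg/ml) for 11 h, light-labeled in culture 1 and heavy-labeled in culture 2. Each culture gave 3 RNA isolations, each on its own array, so the 6 arrays stand for 2 biological replicates, and the amino acid label cannot be told apart from the culture. Treated cDNA carried the same dye throughout, and for a single gene dye and treatment cannot be told apart. No dox-treated strain with an unmodified HSC82 promoter was analysed here, and an effect of dox itself cannot be told apart from that of Hsp90 loss. An array averages over a population, so more MSN4 mRNA per cell and more cells with MSN4 mRNA cannot be told apart either.

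All values are log2 ratios, treated over untreated, on which 0 is no difference. The mean of a culture is that of its 3 technical arrays. Both culture means were tested against 0 with limma over the 6290 genes with a value in each culture. A gene was called changed above 1.5-fold (a log2 ratio beyond 0.58 in either direction) with an unadjusted p below 0.05, and Benjamini-Hochberg adjusted p-values over all genes are given. Under this rule 10.5% of all tested genes were called, 5.74% as higher and 4.74% as lower, and 5.36% were called with the adjusted p in its place. HSC82 itself, whose promoter dox shuts off, averaged −5.99 (standard error, SE, 0.16, limma adjusted p = 0.000658) and was lower on 6 of 6 arrays. Array medians lay between −0.03 and 0.02, and the ratios of all genes were spread more widely in culture 1 (SD 0.54) than in culture 2 (SD 0.40).

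MSN4, the stress-inducible paralog, was the only one of the 4 factors that was called. Its log2 ratios on the arrays of culture 1 were 1.20, 1.16 and 1.44, and those of culture 2 were 0.59, 0.30 and 0.34. All 6 arrays lay above 0, and the lowest array of culture 1 lay above the highest of culture 2. The culture means were 1.27 ± 0.15 (SD, n = 3 technical arrays) and 0.41 ± 0.16, and only that of culture 1 was beyond 1.5-fold. The mean of the cultures was 0.84 (a 1.79-fold rise, SE 0.22, 95% confidence interval 0.28 to 1.39). It exceeded the mean of 96.9% of the genes tested, and 191 genes had a higher one. With the p adjusted over all genes MSN4 was not called (limma adjusted p = 0.0838), nor was it called from culture 2 alone. The count of 1 of 4 factors is read beside the 10.5% of all genes. With 4 genes, it says little about the factors as a set.

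MSN2, the constitutively expressed paralog, had log2 ratios of −0.06, 0.03 and 0.04 in culture 1 and of −0.24, 0.07 and −0.11 in culture 2. In each culture the arrays lay on both sides of 0. The mean of both cultures was −0.05 (SE 0.12, limma adjusted p = 0.831), and its 95% confidence interval of −0.34 to 0.25 leaves out a 1.5-fold change in either direction. With only the culture means to go on, limma drew the width of this interval largely from the spread of all genes, not of MSN2. The ratio of MSN4 lay above that of MSN2 on each array, but this difference was not tested. Its mean in culture 2 was 0.50 ± 0.31 (SD, n = 3 technical arrays). The log2 ratio of MSN4 exceeded that of MSN2 by 1.27, 1.12 and 1.41 on the arrays of culture 1 and by 0.84, 0.22 and 0.44 on those of culture 2. Whether the MSN4 probe also binds MSN2 mRNA was not tested.

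HSF1, the gene of the heat-shock factor itself, had log2 ratios of −0.01, 0.23 and 0.15 in culture 1 and of 0.03, 0.10 and −0.04 in culture 2. All of them were close to 0, and the arrays of the cultures overlapped. The mean was 0.07 (SE 0.12, 95% confidence interval −0.22 to 0.37, limma adjusted p = 0.707). This interval, whose width was drawn largely from all genes as for MSN2, also leaves out a 1.5-fold change in either direction. The mean of HSF1 exceeded that of 60.7% of the genes tested, and that of MSN2 exceeded 44.1%.

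GIS1, the gene of the post-diauxic factor, had log2 ratios of −0.28, −0.28 and −0.32 in culture 1, all below 0 and close together. In culture 2 they were 0.26, −0.04 and −0.03. Every array of culture 2 lay above every array of culture 1. The culture means were −0.29 ± 0.03 (SD, n = 3 technical arrays) and 0.06 ± 0.17. Their mean was −0.12 (SE 0.14, 95% confidence interval −0.47 to 0.23, limma adjusted p = 0.615) and exceeded that of 34.7% of the genes. By their means the factors came in the order MSN4, HSF1, MSN2 and GIS1, and the confidence intervals of HSF1, MSN2 and GIS1 overlapped. The plot of the log2 ratio of each factor on each array shows MSN4 apart from the others.

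**Figure D1:**
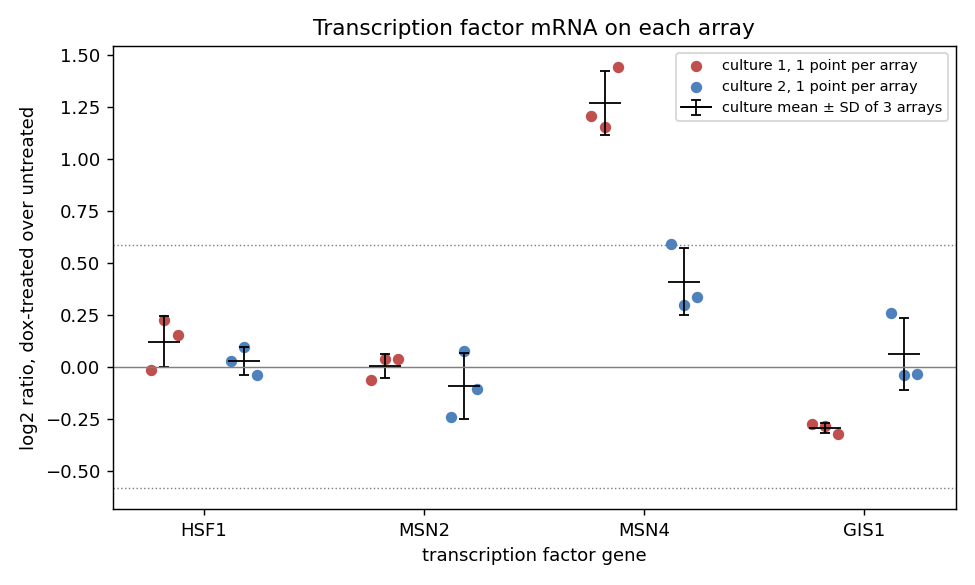
Log2 ratio of dox-treated over untreated cells (vertical axis) for the 4 transcription factor genes (horizontal axis). Each point is an array, red for culture 1 and blue for culture 2, black bars give the culture mean ± SD of 3 technical arrays, and dotted lines mark 1.5-fold. MSN4 lies between 1.16 and 1.44 in culture 1 and between 0.30 and 0.59 in culture 2, while the other genes lie between −0.32 and 0.26.

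The cultures were compared with limma over 3 technical arrays against 3, which asks whether they differ beyond the spread of repeated RNA isolations. Among 6288 genes, 7.47% differed by more than 1.5-fold with an adjusted p below 0.05. Of the factors, 1 of 4 did. The log2 ratio of MSN4 was lower in culture 2 than in culture 1 by 0.86 (95% confidence interval of culture 2 minus culture 1 −1.12 to −0.59, limma adjusted p = 0.0016), a 1.81-fold difference. With quantile normalization, which gives all arrays the same spread, it was −0.56 and missed the 1.5-fold threshold (adjusted p = 0.00824). GIS1 differed the other way by 0.36 (95% confidence interval 0.12 to 0.59, limma adjusted p = 0.0389), under 1.5-fold, and stayed past this p in 1 of 9 other settings (0.0371 to 0.104). For HSF1 the difference was −0.09 (−0.31 to 0.12) and for MSN2 −0.09 (−0.33 to 0.14), with adjusted p-values of 0.513 and 0.54 from limma.

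For each factor the 3 genes with the most similar values were found by the root mean squared difference over the 6 arrays, among 6152 other genes with complete values. The closest to MSN4 were EMP46, a cargo receptor of the early secretory pathway (difference 0.075, culture means 1.28 and 0.50), GLC3, the glycogen branching enzyme (0.106, 1.32 and 0.51), and ADY2, an acetate transporter (0.118, 1.26 and 0.51). Within a difference of 0.2 MSN4 had 29 genes. HSF1 had 1377 genes within that distance, MSN2 had 1221 and GIS1 had 742, as is the case for genes near 0. The closest to HSF1 were KRE2, TAF1 and SOD1, the closest to MSN2 were FDC1, GEX2 and UBX5, and the closest to GIS1 were IRC4, HEH2 and UTR4.

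Factors that share a DNA-binding domain with these were examined next. Of 8 such genes, 3 were called, 1 higher and 2 lower (all 3 also with the adjusted p), beside 10.5% of all genes. USV1, a zinc finger factor, was higher on 6 of 6 arrays, with 0.87 in culture 1 and 0.58 in culture 2 (mean 0.73, SE 0.13, limma adjusted p = 0.0458). COM2, whose zinc fingers resemble those of Msn2 and Msn4, was lower on 6 of 6 arrays (−0.97 and −0.58, mean −0.78, limma adjusted p = 0.0473). HMS2, which has an Hsf-like domain, fell in both cultures (−1.09 and −0.74, mean −0.92, limma adjusted p = 0.0356). These 3 means lay outside the range of HSF1, MSN2 and GIS1. By the fold in culture 2 alone, HMS2 was the 1 gene of the 3 that remained past 1.5-fold, which USV1 and COM2 narrowly missed, and at a 2-fold threshold 0 of them were called. RPH1, the paralog of GIS1, had −0.18 in culture 1 and 0.06 in culture 2, and its mean of −0.06 was not called. SKN7, the other stress factor with an Hsf-like domain, had −0.13 and −0.20, and SFL1, a repressor with such a domain, had −0.13 and 0.04. RGM1, a further zinc finger factor, had −0.50 and −0.41 and was not called. MGA1 had −0.83 in culture 1 and 0.14 in culture 2, a difference between the cultures of 0.97 (limma adjusted p = 0.00586).

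None of 28 genes of the pathways that control Msn2, Msn4 and Gis1 was called (0 of 28 by limma over the 2 cultures at 1.5-fold, against 10.5% of all genes), and none was called with the adjusted p. Their means ran from −0.40 to 0.39, and the medians were −0.10 in culture 1 and −0.08 in culture 2. Among the 12 genes of the Ras and protein kinase A pathway, BCY1, the inhibitory subunit of the kinase, had 0.41 in culture 1 and 0.37 in culture 2 and lay above 0 on 6 of 6 arrays (limma adjusted p = 0.101). CYR1, adenylate cyclase, had 0.37 and 0.27. GPA2, the G protein subunit of glucose sensing, had −0.39 and −0.38 (limma adjusted p = 0.103), and RAS1 had −0.55 and −0.12. Among the 16 other regulators, BMH2, a 14-3-3 protein, had the highest mean (0.36) and TOR1 the next (0.27). IGO2, which acts below Rim15, had the lowest (−0.40) and SNF1, the kinase of glucose derepression, the next (−0.26). Without a fold threshold, 9 of the 36 related factors and regulators had an unadjusted p below 0.05, beside 29.1% of all genes.

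**Figure D2:**
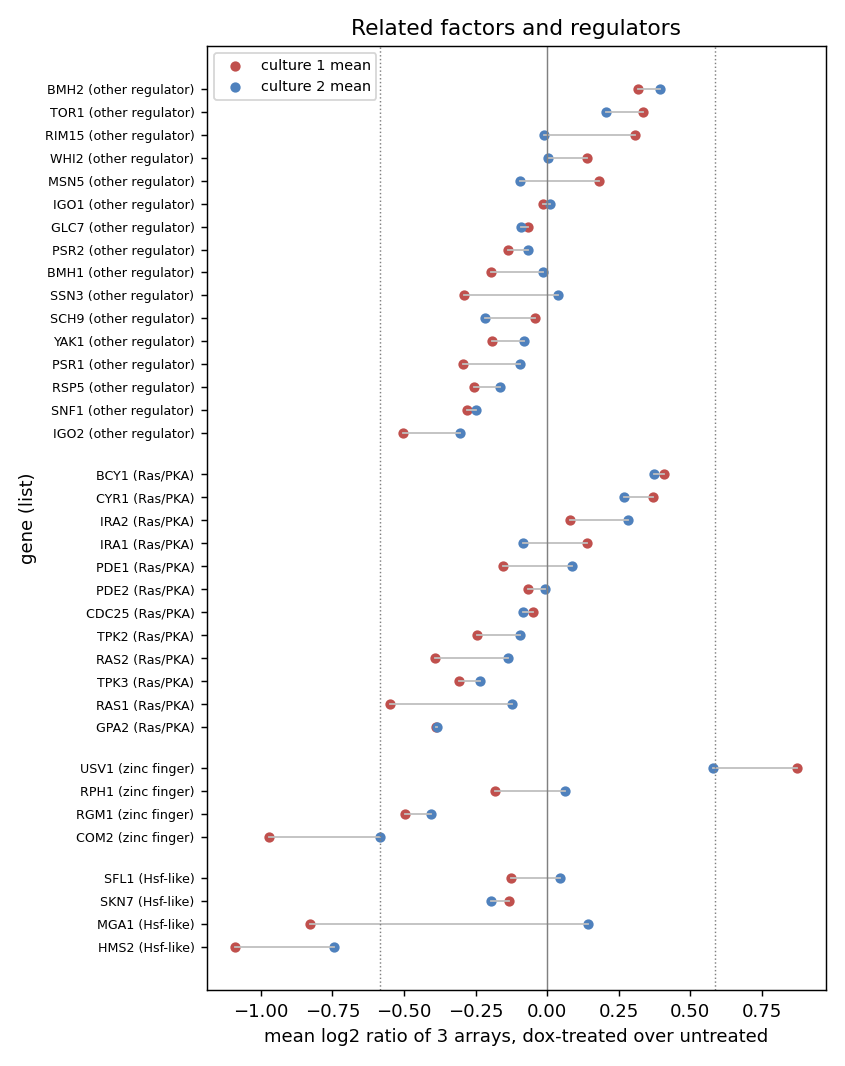
Mean log2 ratio of 3 technical arrays (horizontal axis) in culture 1 (red) and culture 2 (blue) for 8 factors with a related DNA-binding domain and 28 regulators (vertical axis), with dotted lines at 1.5-fold. HMS2 and COM2 have the lowest and USV1 has the highest mean of both cultures, while every mean of the regulators falls inside the dotted lines.

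The targets of each factor were read on the same arrays. Their lists were drawn up with earlier results of these data known, so the shares below describe these lists and test nothing. Of 24 genes known as targets of Msn2 and Msn4, 10 were called (41.7%, beside 10.5% of all genes), 9 higher and 1 lower, and 3 were called with the adjusted p (2 higher and 1 lower). The higher genes were HSP12, TKL2, ALD3, RTN2, DDR2, SSA3, MSC1, CTT1 and OM45. Of these, only TKL2, ALD3, RTN2 and CTT1 were above 1.5-fold in culture 2. DDR2 had 3.13 in culture 1 and 0.22 in culture 2, and SSA3 had 2.89 and 0.28. RTN2, a reticulon-like protein, rose by 2.56 in culture 1 and 1.44 in culture 2 (mean 2.00, limma adjusted p = 0.0326). CTT1, the cytosolic catalase, rose by 1.02 and 0.71 (mean 0.87, limma adjusted p = 0.0361). HSP12, a small membrane-associated stress protein, had the highest mean of the list (2.49). Its log2 ratios were 4.98, 5.04 and 4.03 in culture 1 and 0.75, 0.12 and −0.00 in culture 2, so that nearly all of this mean came from culture 1. TKL2, the minor transketolase, had 3.55 and 1.05. GLK1, glucokinase, was the gene called lower (−0.58 and −0.72, limma adjusted p = 0.047), and UGP1, UDP-glucose pyrophosphorylase, had −0.19 and −0.85 and was not called.

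The Msn2/Msn4 targets had the higher ratios in culture 1, as MSN4 did. Their median was 0.94 in culture 1 and 0.04 in culture 2, where the medians of all genes were −0.02 and 0.02. This list also went both ways, with 15 of the 24 above 0 in both cultures and 6 below 0 in both. Among the 6290 genes tested these counts were 2327 and 2329. By the fold alone, 14 of the 24 were above 1.5-fold in culture 1, beside 8.81% of all genes, and 4 in culture 2, beside 4.32%. In the comparison of the cultures 14 of 24 differed, beside 7.47% of all genes, and all 14 had the higher ratio in culture 1. Of the 24, 22 had the higher ratio in culture 1, beside 43.6% of all genes. The exceptions were TPS2, the trehalose-6-phosphate phosphatase (−0.73 in culture 1 and −0.19 in culture 2), and PNC1, nicotinamidase (−0.36 and −0.26). The part of the wider spread of culture 1 in these values was not tested for the list.

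The targets of Hsf1 went both ways. Each gene was placed on either this list or that of Msn2 and Msn4, and whether a gene answers to both was not examined. Of 21 targets, from which HSC82 and HSP82 were left out because the strain is engineered in both, 2 were called, both lower and both also with the adjusted p (9.52%, beside 10.5% of all genes). BTN2, which gathers misfolded proteins, had −0.73 in culture 1 and −0.90 in culture 2 (limma adjusted p = 0.0356). MBF1, a transcriptional coactivator, had −0.88 and −0.62 (limma adjusted p = 0.0415). The median of the list was 0.07 in culture 1 and −0.03 in culture 2. The highest means were those of SSA4, the strongly heat-inducible Hsp70 (0.76), and SSE1, an Hsp110 (0.44). SSA4 was above 0 on the 3 arrays of culture 1 (1.92, 1.78 and 1.66) and below 0 on those of culture 2 (−0.20, −0.10 and −0.50) and was not called, and SSE1 had 0.57 and 0.32. SSA3 and SSA4 are close relatives, and cross-hybridization between their probes was not tested. Of the 21 targets, 9 were above 0 in both cultures and 8 below 0 in both. The higher ratio was that of culture 1 for 14 of the 21, beside 43.6% of all genes, so this tilt was not confined to the Msn2/Msn4 list. Between the cultures 2 of 21 targets differed, a share close to the 7.47% of all genes, and these were SSA4 and the Hsp90 cochaperone gene CPR6 (0.73 and 0.12), both higher in culture 1.

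The list for Gis1 was short, with 5 genes, of which 3 (HSP12, HSP26 and SSA3) are also on the Msn2/Msn4 list. It had 2 called genes, HSP12 and SSA3, beside 10.5% of all genes, and none with the adjusted p. This count dropped to 0 after median centering and also without any 1 of the arrays 1-1, 1-3 and 2-2 (culture and array number), and 1 without array 2-1. PHR1 and DPP1, which Gis1 is known to repress and which are on no other list here, had means of 0.01 and 0.00, with arrays on both sides of 0. GIS1 itself had the lower ratio in culture 1, where HSP12, HSP26 and SSA3 had the higher ones.

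**Figure D3:**
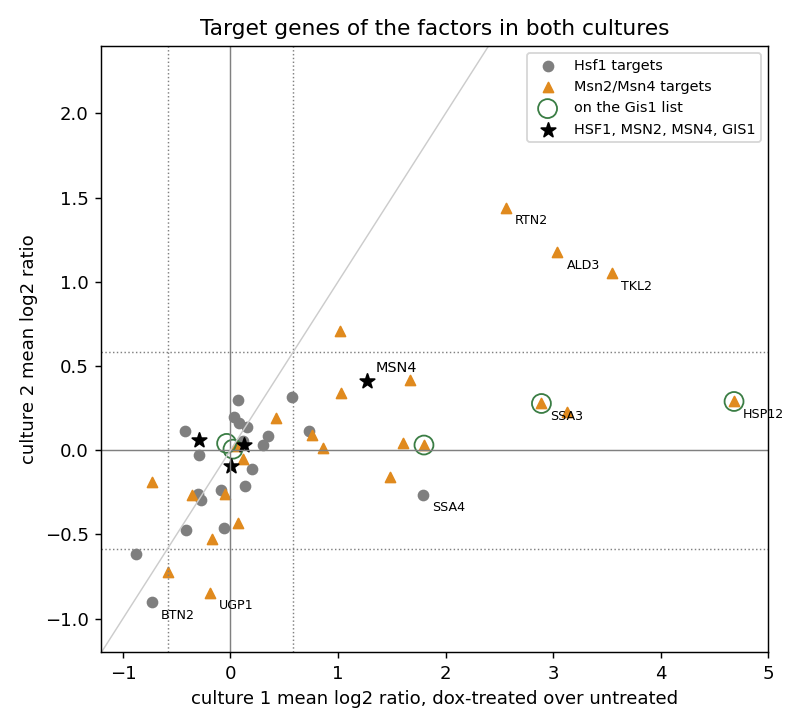
Mean log2 ratio in culture 1 (horizontal axis) against culture 2 (vertical axis, on a wider scale) for 21 Hsf1 targets (gray circles), 24 Msn2/Msn4 targets (orange triangles), the 5 genes of the Gis1 list (green rings, where PHR1 and DPP1 carry a ring alone) and the 4 factors (black stars). The diagonal marks equal ratios and dotted lines 1.5-fold. MSN4 and most of the Msn2/Msn4 targets lie to the right of the diagonal, HSP12 at 4.68 and 0.29, while most Hsf1 targets lie near the origin.

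Under the other settings tried, MSN4 kept the highest ratio of the 4 factors. It stayed between 0.74 and 0.87 with other normalizations, filters and units of replication and with any array left out, and was called each time. It was 0.41 in culture 2 alone and 1.27 in culture 1 alone. Its limma adjusted p ran from 0.00336 with the 6 arrays as replicates to 0.151 after median centering of the arrays. The lower of these counts technical arrays as independent replicates, although the arrays stand for 2 cultures. HSF1, MSN2 and GIS1 were called under none of these settings, and GIS1 had −0.29 in culture 1 alone and 0.06 in culture 2 alone.

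**Figure D4:**
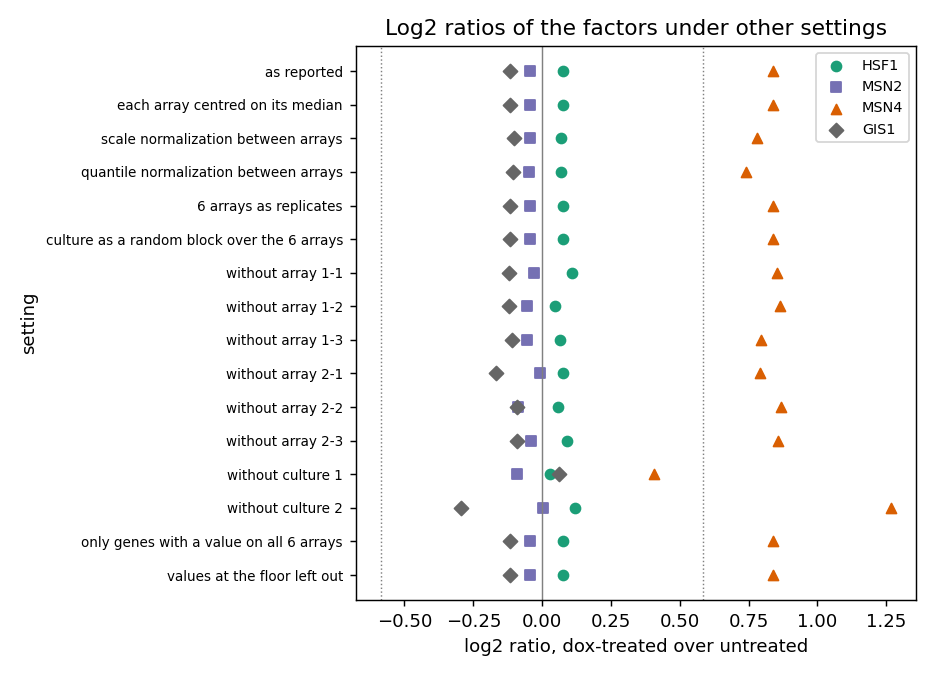
Log2 ratio of dox-treated over untreated cells (horizontal axis) of HSF1 (green circles), MSN2 (purple squares), MSN4 (orange triangles) and GIS1 (gray diamonds) under each setting (vertical axis), with dotted lines at 1.5-fold. MSN4 lies beyond the dotted line in each row except that without culture 1, where it is 0.41, and the other genes stay inside the lines throughout.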

How the data were processed

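On homemade oligonucleotide arrays, the authors normalized both channels of each array by LOWESS (GeneSpring GX). They deposited 1 value per probe and array, read here as a log2 ratio. Neither scale nor direction is stated with the values. The scale was taken from the lowest value (−6.64, the log2 of 0.01), and the direction from the titles, with which the low HSC82 ratio goes. Intensities, flags and background were not analysed, so precision rests on the number of arrays (6180 to 6353 values on each). There were 0 other sample columns. Symbols came from the R64 table of RefSeq, where 5840 of 6377 ORFs matched. As the array files name no genome build, no coordinates are given.

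Values were averaged by culture and tested against 0 with limma 3.58.1 (R 4.3.3; lmFit, eBayes), at the 1.5-fold and p criterion of the paper's methods, which name no test. Culture 2 was set against culture 1 over technical arrays. All tests were two-sided. They were also run on simulated data with the largest spreads between cultures trimmed, which does not cover genes such as HSP12. From each list the text names the called genes and those with the 2 highest and 2 lowest means. Other genes (RPH1, SKN7, MGA1, TPS2, PNC1, CPR6, HSP26) were added after their values were seen. The factors and all lists, drawn up from general knowledge, were chosen with earlier results of these data known. A further regulator is not reported here. Alternatives covered normalization, the unit of replication, filters, thresholds, and each array and culture left out.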

Additional observations from a re-analysis of the deposited data

Results flagged for a closer look

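The log2 ratio of MSN4 differed between the cultures, by −0.86 for culture 2 minus culture 1 (culture means 0.41 and 1.27), and every array of culture 1 lay above every array of culture 2. That of GIS1 differed by 0.36 in the other direction (0.06 and −0.29). Both differences passed an adjusted p of 0.05 from limma over technical arrays (0.0016 and 0.0389), which measures these 2 cultures and not a condition. The difference of GIS1 was past this p in 1 of 9 alternatives (adjusted p from 0.0371 to 0.104). That of MSN4 was past it in 9 of 9. For each of the 4 factors the highest and lowest of the 6 arrays were compared with the rest, and 0 stood apart. As both cultures were pooled here, an array apart within its own culture can be missed.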

How the results depend on the processing

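MSN4 was the 1 factor called, and the count was 0 without culture 1, 0 with the adjusted p and 0 at a 2-fold threshold. The number of called Hsf1 targets (2, both lower) was 4 without culture 2, 0 at 2-fold and 4 without a fold threshold. Without culture 2 these were 2 higher and 2 lower. Without a fold threshold SSE1 was higher, and HSP42, BTN2 and MBF1 were lower. For the Msn2/Msn4 targets (10) it was 6 without culture 1 and 3 with the adjusted p. Those 6 were 4 higher and 2 lower, and UGP1 among them was not among the 10. For the Gis1 list (2) it was 0 with centered arrays, 1 with scale normalization, 0 without culture 1 and 0 with the adjusted p, and it ran from 0 to 2 with an array left out. The difference of MSN4 between the cultures fell under 1.5-fold with quantile normalization (−0.56), which left 0 factors that differed by the full criterion. With 1 culture left out there is no test, and values past the fold were counted. Signal over background was not analysed here.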
